A study of Homo sapiens with 6 samples.

Results

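The 10 genes described here encode the proteins that carry deoxycytidine and its analogues into a cell, phosphorylate them, and break them down. They were picked by name: SLC29A1 and SLC29A2 (transport), DCK, CMPK1, NME1 and NME2 (kinases), CDA and DCTD (deaminases), and DCTPP1 and SAMHD1 (hydrolases of deoxynucleoside triphosphates). All 10 were among the 23710 gene symbols counted, and 9 of them were among the 12339 that passed a filter on low counts. The filter dropped CDA.

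The cells were K562, a single human line derived from a chronic myelogenous leukaemia that keeps erythroid features, at passages 13 to 16 in medium with 10% serum. The treated group received 20 µM 3FM-dC together with 2 mM THU for 24 h (3 libraries), and the DMSO group received the solvent of both compounds for the same time (3 libraries). No group had either compound alone, so any effect of 3FM-dC and any effect of THU cannot be told apart. THU is written only as an abbreviation in the labels. It is the usual short form of tetrahydrouridine, an inhibitor of the enzyme that CDA encodes, and "dC" is the usual short form of deoxycytidine. The series title names TET2, and the stated purpose was to find the effect of 3FM-dC on gene expression.

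Deoxycytidine enters cells mainly through equilibrative nucleoside transporters. Inside, DCK adds the first phosphate, a step that often limits how much of an analogue becomes active. CMPK1 adds the second phosphate, and nucleoside diphosphate kinases such as NME1 and NME2 add the third. Cytidine deaminase (CDA) converts the nucleoside to its uridine form, DCTD does the same to the monophosphate, and DCTPP1 and SAMHD1 degrade triphosphates. In leukaemia these proteins are known for how they affect cells' sensitivity to cytarabine and decitabine.

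Libraries held 19052821 to 20737363 counts in genes in the treated group and 18408826 to 22750278 in the DMSO group. Of 10 markers of K562, 9 were at or above 1 CPM (the read count divided by the scaled library size, on the usual scale) in all 6 libraries, and the summed level of the 10 was 3725 to 3884 CPM in treated and 7189 to 7377 CPM in DMSO libraries. The summed levels of markers of other cell types were 10.5 to 11.9 CPM in treated and 8.15 to 9.21 CPM in DMSO libraries for 6 lymphoid genes, 24.4 to 25.3 CPM in treated and 13.0 to 15.03 CPM in DMSO libraries for 6 monocyte and granulocyte genes, 6.90 to 11.7 CPM in treated and 10.3 to 13.9 CPM in DMSO libraries for 6 fibroblast and endothelial genes, and 60.6 to 63.6 CPM in treated and 102 to 103 CPM in DMSO libraries for 4 epithelial genes. MS4A1, ELANE, CDH5, KRT5 and KRT14 had no count in any library. Several of these sums moved with treatment, and their part in the results below was not tested. In these bulk samples a smaller share of cells with a transcript and less of it per cell cannot be told apart. The labels do not state whether replicates came from separate cultures, so each p-value reflects library-to-library spread that may be technical only.

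Transcripts of both transporters (SLC29A1, SLC29A2), of the second-step kinase CMPK1 and of NME1 were lower in treated cells, while that of the first kinase, DCK, did not pass the test. Of the 9 tested genes, 6 fell (SLC29A1, SLC29A2, CMPK1, NME1, DCTPP1 and SAMHD1), against 32.7% of all genes tested, and DCTD rose, against 33.8%; in either direction 7 were called, against 66.4%. DCK and NME2 did not pass, and the counts of NME2 are uncertain for a reason given below. The CPM of the groups did not overlap for 8 of the 9, against 70.0% of all genes tested, with the treated libraries lower for 7 (34.5%) and higher for DCTD (35.5%). The test was edgeR's quasi-likelihood test, with p-values adjusted by Benjamini-Hochberg over all 12339 genes and a call at an adjusted p under 0.05. The median log2 fold change was -0.30 over the 9 genes and 0.01 over all genes tested. None of the 9 was called with a change of 2-fold or more, a size that 12.7% of all genes tested reached.

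**Figure D1:**
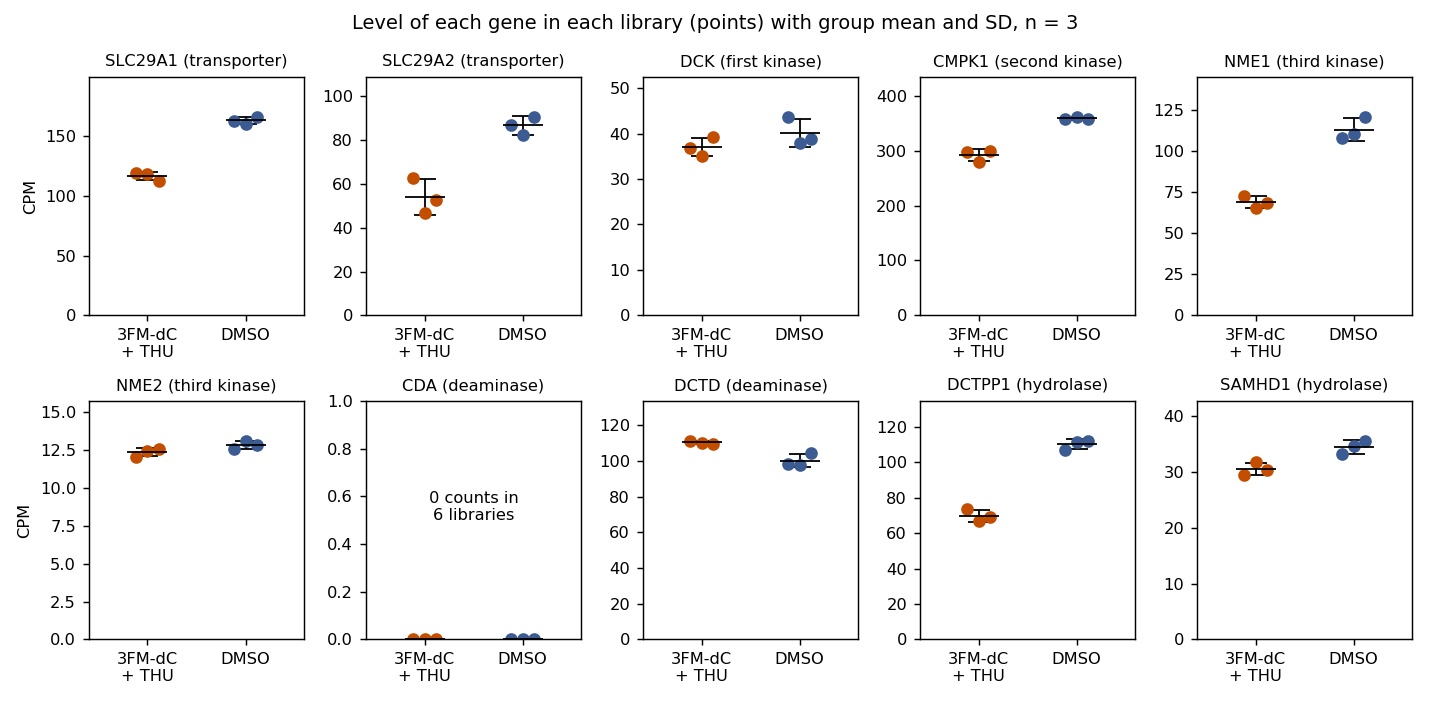
Level of each of the 10 genes in CPM (vertical axis, starting at 0) in 3FM-dC plus THU libraries (left in each panel) and DMSO libraries (right); points are libraries, and the bar and whiskers are the mean and SD of 3. The groups separate clearly for SLC29A1, SLC29A2, CMPK1, NME1 and DCTPP1, overlap for DCK, and CDA has 0 counts throughout.

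Promoter windows of 5 of these genes are shown, 4 because they hold the short motif CACGTG and CDA because it was not detected. Each is a 300-base RefSeq window around a transcription start in GRCh38.p14, 5′ to 3′ on the gene's strand, and capitals mark this motif, the E-box that MYC, MAX and USF proteins can bind.
NME1 (chr17:51153309-51153608, plus strand): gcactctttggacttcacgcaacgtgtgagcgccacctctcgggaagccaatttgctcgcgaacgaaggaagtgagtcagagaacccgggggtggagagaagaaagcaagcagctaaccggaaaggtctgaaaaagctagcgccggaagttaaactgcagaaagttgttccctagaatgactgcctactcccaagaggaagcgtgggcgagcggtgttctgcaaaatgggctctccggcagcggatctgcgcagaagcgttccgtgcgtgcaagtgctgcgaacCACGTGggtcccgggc
DCTPP1 (chr16:30429751-30430050, minus strand): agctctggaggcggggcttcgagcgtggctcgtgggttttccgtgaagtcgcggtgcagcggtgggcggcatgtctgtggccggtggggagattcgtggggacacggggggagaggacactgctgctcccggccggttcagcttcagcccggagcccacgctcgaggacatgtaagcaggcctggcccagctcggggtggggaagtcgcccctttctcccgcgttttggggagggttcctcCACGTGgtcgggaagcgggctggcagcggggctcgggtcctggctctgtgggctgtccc
SLC29A1 (chr6:44219365-44219664, plus strand): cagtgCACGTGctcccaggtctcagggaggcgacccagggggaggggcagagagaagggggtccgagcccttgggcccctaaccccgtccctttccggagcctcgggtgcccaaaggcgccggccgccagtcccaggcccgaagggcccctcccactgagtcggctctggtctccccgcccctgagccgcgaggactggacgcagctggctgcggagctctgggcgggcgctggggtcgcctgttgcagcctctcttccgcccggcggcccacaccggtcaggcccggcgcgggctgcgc
DCK (chr4:70993399-70993698, plus strand): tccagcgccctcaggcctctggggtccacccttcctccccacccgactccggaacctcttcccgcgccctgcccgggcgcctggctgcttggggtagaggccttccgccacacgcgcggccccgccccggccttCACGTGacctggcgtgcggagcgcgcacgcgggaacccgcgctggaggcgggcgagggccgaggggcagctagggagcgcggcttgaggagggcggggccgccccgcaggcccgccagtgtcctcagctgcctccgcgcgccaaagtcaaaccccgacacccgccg
CDA (chr1:20588847-20589146, plus strand): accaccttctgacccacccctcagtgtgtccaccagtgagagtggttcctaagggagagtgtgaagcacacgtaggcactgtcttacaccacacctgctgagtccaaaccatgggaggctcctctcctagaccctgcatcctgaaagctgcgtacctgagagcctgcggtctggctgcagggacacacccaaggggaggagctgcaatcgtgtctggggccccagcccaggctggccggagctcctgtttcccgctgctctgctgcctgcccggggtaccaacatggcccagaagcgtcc

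NME1, DCTPP1 and SLC29A1, which fell, and DCK, which did not pass the test, each had CACGTG in such a window, SLC29A1 in 1 of its 2 listed windows. In all, 4 of the 13 windows listed for these genes held it, against 7.26% of 35116 windows of the same length, and 10.2% of the 14454 windows with at least 20 CpG dinucleotides. SLC29A2 was not listed. Both strands were searched for 7 further motifs, which can overlap CACGTG or each other. GGGCGG, the SP1 box, stood in 9 of the 13 windows, from 5 genes (45.0% of all windows and 82.1% of those rich in CpG). Some windows of NME2 overlap in part, as do those of DCTD, so the windows are not independent. CCAAT, the NF-Y box, stood in NME1 and SAMHD1 (34.6% of all windows and 30.3% of those rich in CpG). The E2F forms TTTCCCGC and TTTGGCGC stood in CDA and DCK (1.63% and 0.652% of all windows, 2.92% and 1.08% of those rich in CpG). The NRF1 palindrome, TGACGTCA (CREB and ATF) and TGATGNAAT (a CEBP-ATF composite) were found in none of the 13 (1.24%, 1.85% and 0.991% of all windows). Among windows rich in CpG their shares were 2.59%, 3.22% and 0.242%. The CDA window has 8 CpG dinucleotides, the fewest of the 13. Of the windows listed for detected genes, 1 of NME2 has 9, and the others have from 22 (SAMHD1) to 47 (DCTD). The median over all windows was 14. A match describes the letters only, and binding was not measured.

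Both transporter genes fell. SLC29A1, on chromosome 6, encodes ENT1, the main equilibrative nucleoside transporter of many cells. It measured 119, 119 and 113 CPM in treated replicates 1, 2 and 3, against 163, 161 and 166 CPM in DMSO replicates 1, 2 and 3. Every treated library lay below every DMSO library. The log2 fold change was -0.48 (SE 0.04, edgeR adjusted p = 6.85e-11). SLC29A2, on chromosome 11, encodes ENT2, a related transporter that also accepts free nucleobases. It measured 62.8, 46.6 and 52.6 CPM in treated libraries, against 87.0, 82.4 and 90.7 CPM in DMSO libraries, again without overlap. Its log2 fold change was -0.69 (SE 0.07, edgeR adjusted p = 1.45e-09). The treated libraries spread more for SLC29A2 (54.0 ± 8.22 CPM, SD, n = 3) than for SLC29A1 (117 ± 3.52 CPM).

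The ratio of SLC29A1 to SLC29A2 counts within a library does not depend on how libraries are scaled. It was 1.89, 2.55 and 2.14 in treated and 1.87, 1.95 and 1.83 in DMSO libraries. The groups overlapped, and the difference did not pass (exact permutation test, two-sided, p = 0.2, adjusted p = 0.25 over 5 ratios tested). With 3 libraries against 3 the exact permutation test cannot go below p = 0.1.

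DCK, the deoxycytidine kinase on chromosome 4, measured 36.8, 35.1 and 39.2 CPM in treated libraries, against 43.7, 37.8 and 38.7 CPM in DMSO libraries. The highest treated library lay above the lower pair of DMSO libraries. The log2 fold change was -0.11 (SE 0.07, edgeR adjusted p = 0.163), and the 95% interval of the fold ran from 0.836 to 1.02. As a percentage change the interval ran from -16.4% to 2.26%. In GENCODE v29, 6.17% of DCK's exonic bases lie within exons of MOB1B on the same strand. MOB1B, which encodes a Hippo pathway adaptor, measured 108 ± 0.748 CPM in treated and 143 ± 12.2 CPM in DMSO libraries, and how many reads this overlap moved was not tested.

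CMPK1, the UMP/CMP kinase of the second step, lies on chromosome 1. It measured 297, 280 and 300 CPM in treated libraries, against 357, 362 and 357 CPM in DMSO libraries. The groups did not overlap, and the fall was 18.6% (fold 0.814, 95% interval 0.773 to 0.857, edgeR adjusted p = 3.95e-08). The count ratio of DCK to CMPK1 was 0.124, 0.125 and 0.131 in treated libraries and 0.122, 0.105 and 0.108 in DMSO libraries. It was higher in each treated library than in any DMSO library, at the smallest p this design allows (exact permutation test, two-sided, p = 0.1, adjusted p = 0.167).

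NME1 and SLC29A2 had the lowest log2 fold changes of the 9 tested genes, with overlapping 95% intervals, and without treated replicate 1 that of SLC29A2 (-0.81) was lower than that of NME1 (-0.76). NME1 measured 72.8, 65.2 and 68.7 CPM in treated libraries, against 108, 110 and 121 CPM in DMSO libraries. The log2 fold change was -0.72 (SE 0.05, edgeR adjusted p = 2.17e-12), and 5.88% of all genes tested had a fold change as low or lower. NME2 measured 12.03, 12.42 and 12.56 CPM in treated libraries, against 12.59, 13.11 and 12.84 CPM in DMSO libraries. These did not overlap by a narrow margin, and the test did not pass (log2 fold change -0.06, SE 0.11, edgeR adjusted p = 0.657, 95% interval of the fold 0.824 to 1.12). The count ratio of NME1 to NME2 was 6.05, 5.25 and 5.47 in treated libraries and 8.57, 8.40 and 9.41 in DMSO libraries (exact permutation test, two-sided, p = 0.1, adjusted p = 0.167).

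The level of NME2 in these files is uncertain, and that of NME1 in part. Their count ratio and the test of NME2 rest on these counts and are uncertain too, so no divergence of the pair is read from them. These neighbours on chromosome 17 are also covered by a readthrough gene, NME1-NME2, which has a row of its own with 0 counts in all 6 libraries. In GENCODE v29, which may differ from the annotation the authors used, all 456 coding bases of NME2 (the stop codon not counted) lie within exons of NME1-NME2, and so do 341 of the 456 of NME1, or 74.8%. Reads that matched more than 1 gene stood in a separate total of ambiguous reads, between 496284 and 623600 per library, and how many came from NME1 and NME2 is not recorded.

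The coding sequences of the pair were compared because similar genes can also exchange reads. They agreed at 371 of 459 positions (80.8%), and the longest identical run was 23 bases. Among 60-base windows that start at a codon boundary, none was more similar than positions 223 to 282 from the start codon in the GENCODE v29 transcripts. This window is printed below, with capitals at the 4 positions that differ.
NME1: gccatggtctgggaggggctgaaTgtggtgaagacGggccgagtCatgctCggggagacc
NME2: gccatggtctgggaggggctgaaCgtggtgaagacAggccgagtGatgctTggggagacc

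Of the deaminase genes, CDA was not detected and DCTD rose. CDA, on chromosome 1, had 0 counts in all 6 libraries, and 3 counts, the limit that a count of 0 allows, correspond to between 0.136 and 0.168 CPM per library for counting error only. CDA transcripts were therefore below detection at this depth in treated and in DMSO cells alike, and no fold can be given. DCTD, the dCMP deaminase on chromosome 4, measured 111, 110.0 and 109.8 CPM in treated libraries, against 98.3, 97.9 and 104 CPM in DMSO libraries. It was the single gene of the 9 that rose, by 10.1% (log2 fold change 0.14, SE 0.05, edgeR adjusted p = 0.0102). Without DMSO replicate 1 or without DMSO replicate 2 the call was lost (adjusted p = 0.0595 and 0.0603), and it was lost against a minimum fold change of 1.2; across the 13 alternatives its adjusted p lay between 6.03e-05 and 1.

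Both hydrolase genes fell, by different amounts. DCTPP1, on chromosome 16, whose product hydrolyses dCTP and dCTP with a modified base, measured 73.4, 66.7 and 69.2 CPM in treated libraries, against 107, 112 and 112 CPM in DMSO libraries. The gap between the groups was far wider than the spread within them (log2 fold change -0.66, SE 0.05, edgeR adjusted p = 2.61e-12). In GENCODE v29 the exons of ZNF771 cover 42.1% of DCTPP1's exonic bases on the opposite strand, and the strand setting of the counting is not given. Exons on the opposite strand also cover 10.3% of the exonic bases of SAMHD1 and 10.3% of those of SLC29A2. ZNF771, a zinc finger gene, measured 12.1 ± 1.02 CPM in treated and 10.9 ± 0.918 CPM in DMSO libraries. SAMHD1, a triphosphohydrolase of deoxynucleotides on chromosome 20, measured 29.5, 31.8 and 30.4 CPM in treated libraries, against 33.2, 34.7 and 35.7 CPM in DMSO libraries. The groups did not overlap, but the fall was small (log2 fold change -0.18, SE 0.07, edgeR adjusted p = 0.0286). It did not pass without treated replicate 1 (adjusted p = 0.0771) or 3 (0.0703), without DMSO replicate 2 (0.0573) or 3 (0.105), with libraries scaled by total counts (0.292), with a filter at a mean of 5 CPM (0.0889) or against a minimum fold change of 1.2 (0.937), over a range from 0.0196 to 0.937 across the 13 alternatives.

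The balance of DCK against the hydrolases was read from counts within each library. DCK to DCTPP1 was 0.501, 0.527 and 0.566 in treated libraries and 0.408, 0.339 and 0.345 in DMSO libraries. Every treated library was higher, by 1.46-fold on average (exact permutation test, two-sided, p = 0.1, adjusted p = 0.167). DCK to SAMHD1 was 1.25, 1.11 and 1.29 in treated libraries and 1.32, 1.09 and 1.09 in DMSO libraries, with overlap (exact permutation test, two-sided, p = 0.8, adjusted p = 0.8). None of the 5 ratios passed after adjustment, in a design that could not reach 0.05 before it.

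**Figure D2:**
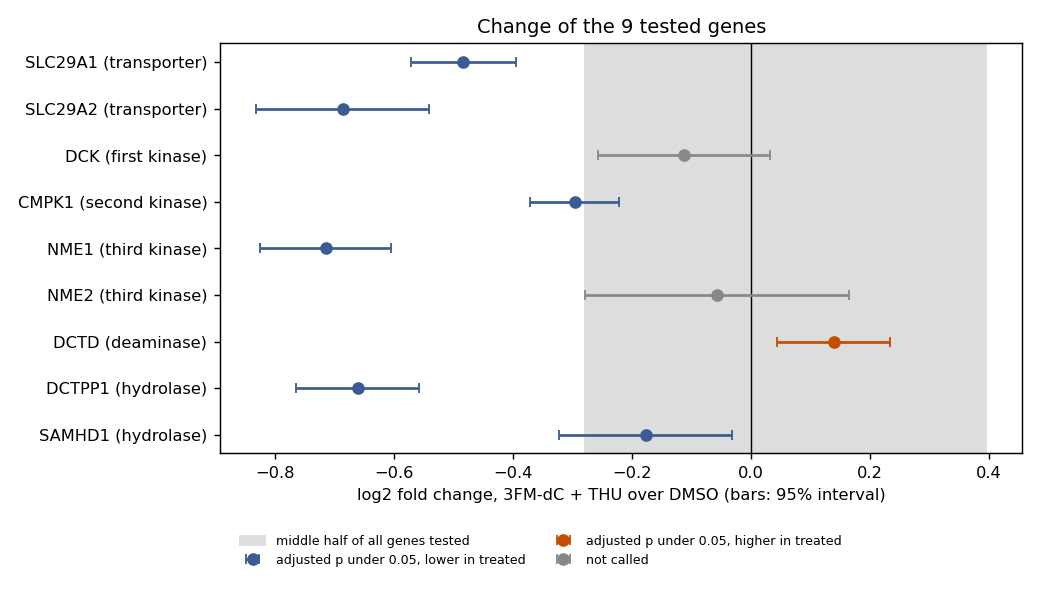
Log2 fold change of 3FM-dC plus THU over DMSO (horizontal axis) for the 9 tested genes, with 95% intervals; the grey band runs from the lower to the upper quartile of all 12339 genes tested, -0.28 to 0.39. The whole intervals of SLC29A1, SLC29A2, NME1 and DCTPP1 lie left of the band, the point of CMPK1 (-0.30) lies just left of it, and DCTD alone lies right of 0. The points of DCTD and SAMHD1, both called, lie within the band, as do those of DCK and NME2.

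Levels were compared between genes after dividing CPM by the length of the longest principal transcript in GENCODE v29. On this scale DMSO cells had CMPK1 (122 ± 0.812 CPM per kb, SD, n = 3) and NME1 (120 ± 7.38) highest, which did not differ beyond their spread. DCTPP1 (90.2 ± 2.28), SLC29A1 (70.2 ± 1.25), DCTD (50.8 ± 1.87) and SLC29A2 (34.5 ± 1.66) followed. NME2 (14.8 ± 0.301) and DCK (14.8 ± 1.16) did not differ beyond their spread, and SAMHD1 was lowest of the detected genes (6.52 ± 0.233 CPM per kb). In treated cells CMPK1 (99.7 ± 3.62 CPM per kb) and NME1 (73.3 ± 4.06) were highest, and the order changed below them. DCTPP1 (57.1 ± 2.78) and DCTD (56.0 ± 0.452) did not differ beyond their spread, and DCTD stood above SLC29A1 (50.2 ± 1.51). SLC29A2 had 21.5 ± 3.27, NME2 14.2 ± 0.316, DCK 13.6 ± 0.746 and SAMHD1 5.77 ± 0.211 CPM per kb. With lengths merged over all annotated exons the order shifted, and NME1 in DMSO cells had 32.9 CPM per kb, below SLC29A1 at 37.0. The rank of NME1 and NME2 is also open to the readthrough gene described above.

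**Figure D3:**
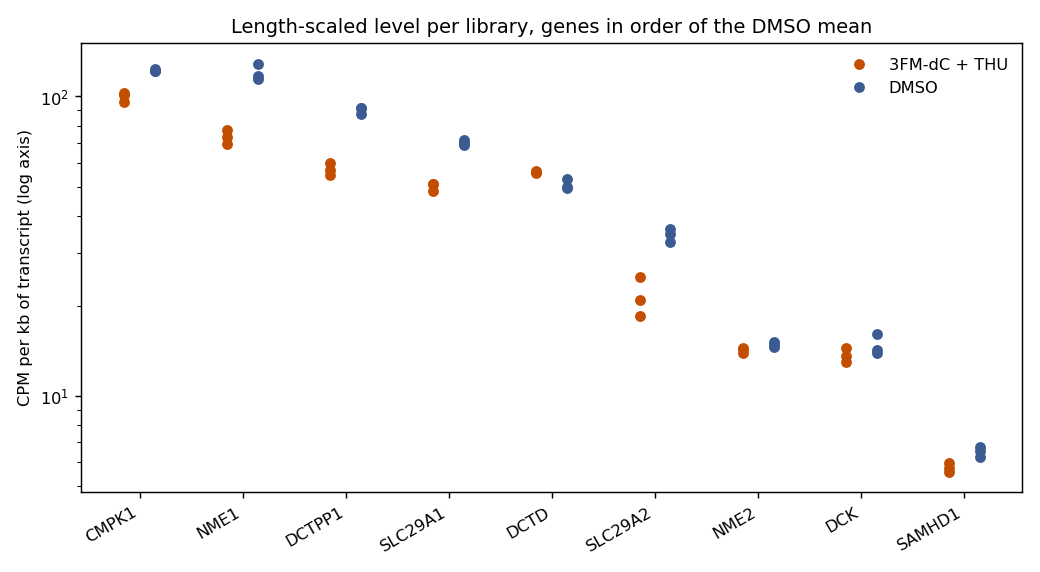
CPM per kb of transcript (log axis) for the 9 detected genes in order of their DMSO mean, with 1 point per library, 3FM-dC plus THU left of DMSO for each gene. The levels span from a mean of 6.52 for SAMHD1 to 122 for CMPK1 in DMSO libraries.

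Other genes of the pathway were read from 9 lists of 85 symbols. Of these, 84 were in the files and 63 were tested. Of the 63, 29 fell, 16 rose and 45 were called either way, against 32.7%, 33.8% and 66.4% of all genes tested, so the share called was near that of all genes. The median log2 fold change was -0.09 over the lists and 0.01 over all genes tested. The counts of single lists below stand against the same shares, and nothing particular to a list is read from them. A gene could pass the filter through a single group.

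Among other nucleoside transporters 2 of 7 listed genes were tested. SLC29A4, which encodes the monoamine transporter PMAT, had 0.768, 1.76 and 1.03 CPM in treated and 0.222, 0.504 and 0.817 CPM in DMSO libraries. The groups overlapped and the rise was called (edgeR adjusted p = 0.0258) but was lost without treated replicate 2 (0.195), DMSO replicate 1 (0.148) or DMSO replicate 2 (0.0718), with DESeq2 (0.0503) and against a minimum fold change of 1.2 (0.0544). Its adjusted p ranged from 0.0124 to 0.195 over the alternatives that kept it. SLC29A4 passed the filter on low counts through the treated libraries, where it was higher, with DMSO counts of 4, 9 and 18. The concentrative transporters SLC28A1, SLC28A2 and SLC28A3 did not pass the filter. Among exporters of nucleoside analogues and other drugs, 5 of 7 were tested. Of these 3 fell, among them ABCC5 (71.4 ± 2.08 CPM in treated, 91.5 ± 3.54 in DMSO), which encodes the exporter MRP5. ABCB1, which encodes the multidrug pump P-glycoprotein, rose instead. It had 3.48, 7.81 and 5.11 CPM in treated and 0.721, 1.12 and 0.862 CPM in DMSO libraries (log2 fold change 2.60, SE 0.30, edgeR adjusted p = 1.40e-08). The DMSO counts of ABCB1 were low (13, 20 and 19), and it did not pass the filter at a mean of 5 CPM.

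Of the other nucleoside and monophosphate kinases all 14 were tested. In this list 10 fell, against 32.7% of all genes tested, 3 rose, against 33.8%, and their median log2 fold change was -0.29. ADK, the adenosine kinase, had 64.6 ± 1.94 CPM in treated and 91.1 ± 1.92 CPM in DMSO libraries. The 3 that rose were CMPK2, a mitochondrial UMP/CMP kinase (20.8 ± 0.906 CPM in treated, 9.90 ± 1.56 in DMSO), TK2, the mitochondrial thymidine kinase that also phosphorylates deoxycytidine (9.41 ± 0.473 CPM in treated, 5.43 ± 0.152 in DMSO), and UCK1, a uridine-cytidine kinase (26.2 ± 2.33 CPM in treated, 21.0 ± 1.82 in DMSO). CMPK1 and CMPK2, which act on the same kinds of nucleotide in cytosol and mitochondria, thus moved in opposite directions. Of 6 other nucleoside diphosphate kinases 4 were tested and 2 fell. NME4, the mitochondrial member, had 54.2, 40.9 and 45.9 CPM in treated and 106, 108 and 114 CPM in DMSO libraries (log2 fold change -1.22, SE 0.07, edgeR adjusted p = 1.91e-15). NME3 had 12.9 ± 1.17 CPM in treated and 20.5 ± 1.15 CPM in DMSO libraries.

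Of 12 symbols of nucleotidases, which remove phosphates, 8 were tested (the 12 include an older and a newer name of 1 gene). Among these 2 rose and 3 fell, near the 33.8% and 32.7% of all genes tested. NT5C2, a cytosolic nucleotidase known for its role in resistance to nucleoside drugs, rose to 71.0 ± 4.99 CPM in treated libraries, against 49.7 ± 2.53 in DMSO. NT5C3, which encodes a pyrimidine nucleotidase of red cells, had 55.1 ± 3.58 CPM in treated and 49.6 ± 0.230 in DMSO libraries, and its rise did not pass without treated replicate 2 (adjusted p = 0.187), without DMSO replicate 1 (0.0668), 2 (0.0738) or 3 (0.0716), with DESeq2 (0.0548), with no filter on low counts (0.0618) or against a minimum fold change of 1.2 (1), the last being the highest over its alternatives. NT5DC2 fell, with 167 ± 3.81 CPM in treated and 192 ± 5.67 CPM in DMSO libraries. Of 11 other hydrolases, all tested, 4 rose and 3 fell, again near those shares. ENTPD6 rose (55.9 ± 0.953 CPM in treated, 38.9 ± 2.06 in DMSO). DUT, which hydrolyses dUTP, fell (143 ± 3.897 CPM in treated, 195 ± 4.23 in DMSO), as did NUDT16 (27.9 ± 2.82 in treated, 37.3 ± 2.55 in DMSO) and NUDT5 (68.7 ± 2.42 in treated, 82.1 ± 5.60 in DMSO).

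Of 13 other deaminases of nucleosides or of cytosine in DNA 8 were tested. Among these 3 rose and 3 fell, near the 33.8% and 32.7% of all genes tested. APOBEC3C, a cytosine deaminase of single-stranded DNA, had 69.3 ± 2.21 CPM in treated and 106 ± 0.379 CPM in DMSO libraries, and CDADC1, a relative of the deaminases, had 9.28 ± 0.689 CPM in treated and 6.18 ± 0.911 CPM in DMSO libraries. APOBEC1 and APOBEC3A had no count in any library. Of 7 genes of phosphorolysis and later pyrimidine breakdown 3 were tested. UPP1, uridine phosphorylase, had 3.74, 8.85 and 4.97 CPM in treated and 0.444, 0.392 and 0.862 CPM in DMSO libraries. This was the largest change among the tested genes of the 9 lists (log2 fold change 3.32, SE 0.34, edgeR adjusted p = 1.52e-09). UPP1 passed the filter on low counts through the treated libraries, where it was high. Its DMSO counts were 8, 7 and 19, near the filter's minimum of 10, so its adjusted p and the size of its fold are uncertain. UPP1 did not pass the filter at a mean of 5 CPM. PNP, purine nucleoside phosphorylase, fell to 98.6 ± 7.71 CPM in treated libraries, against 143 ± 5.98 in DMSO.

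SAMHD1 is held less active by phosphorylation through cyclin A2 and its kinases in dividing cells. Of 8 genes in that circuit, all tested, 4 fell and 1 rose, against 32.7% and 33.8% of all genes tested; the share called either way was near the 66.4% of all genes. CCNA2, which encodes cyclin A2, had 242 ± 8.52 CPM in treated and 335 ± 3.03 CPM in DMSO libraries. CDKN1A, which encodes the kinase inhibitor p21, had 19.9, 27.8 and 22.02 CPM in treated and 4.55, 6.27 and 5.13 CPM in DMSO libraries (log2 fold change 2.13, SE 0.14, edgeR adjusted p = 5.18e-14). Phosphorylation of SAMHD1 itself was not measured.

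**Figure D4:**
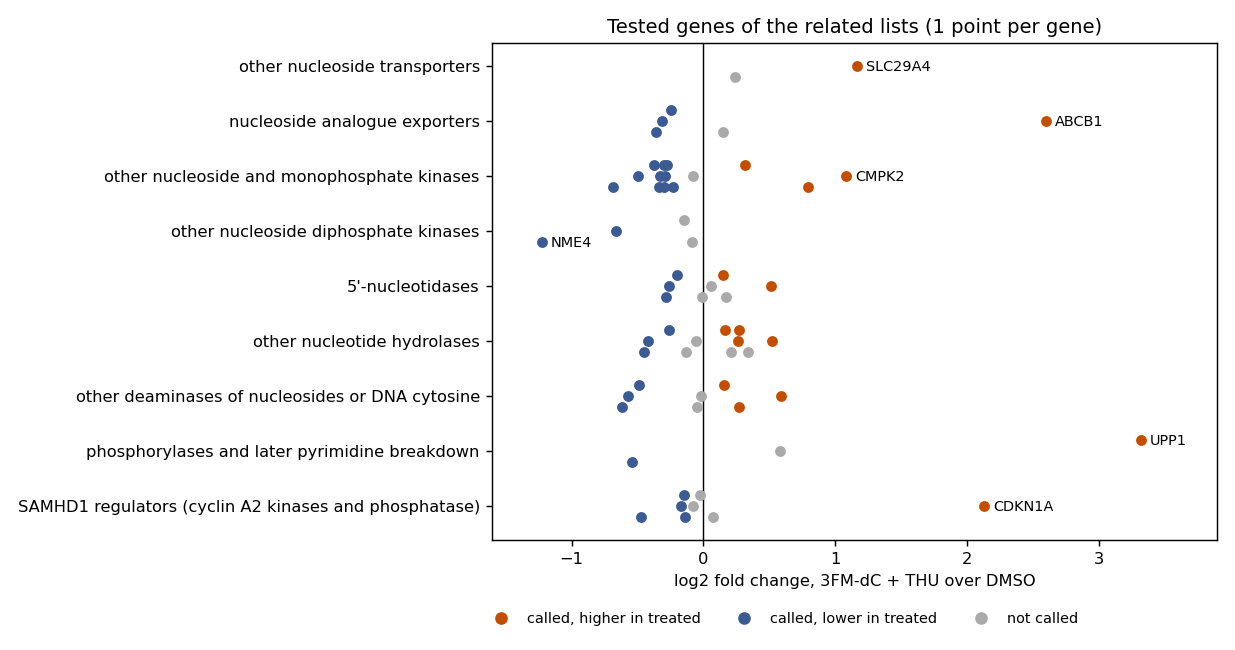
Log2 fold change of 3FM-dC plus THU over DMSO (horizontal axis) for the 63 tested genes of the 9 related lists, 1 point per gene, orange for called and higher, blue for called and lower, grey for not called. UPP1 (3.32), ABCB1 (2.60) and CDKN1A (2.13) lie farthest right and NME4 (-1.22) farthest left.

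For the gene with the largest called rise and the one with the largest called fall with all libraries (NME1), genes with the most similar pattern were sought among 9784 others with a mean of at least 5 CPM, by Pearson's r of log2 CPM over the 6 libraries. For DCTD these included WDR41 (r = 0.998) and DNAL1 (0.995), and 225 genes had an r above 0.95. For NME1 they were MARCKSL1, CALM3 and NDUFV1 (each r = 0.999), and 2141 genes had an r above 0.95. The 6 points share their treatment and their library scaling, so r is given as a description only.

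**Figure D5:**
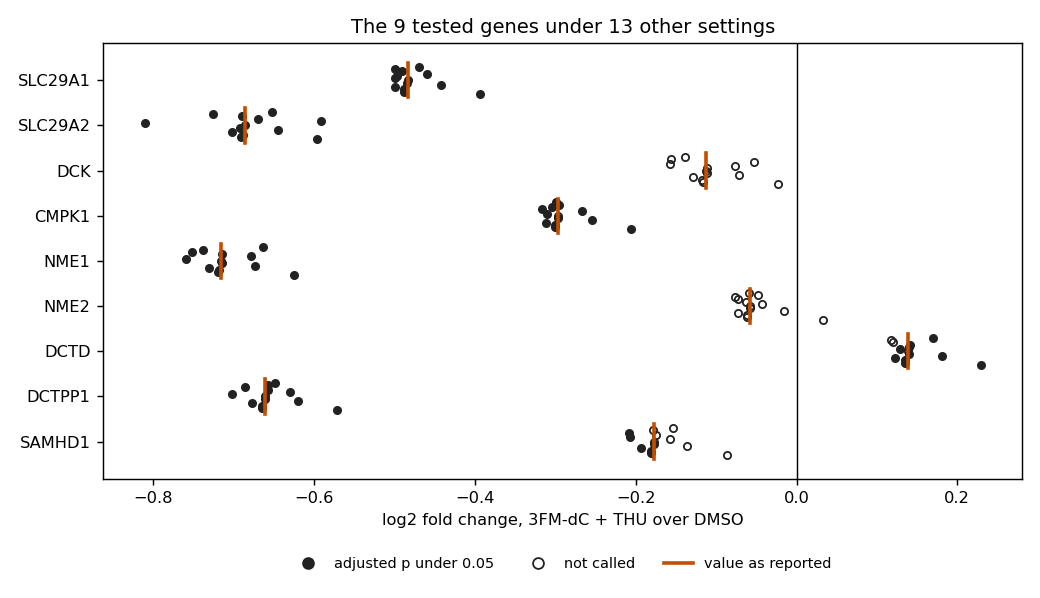
Log2 fold change of 3FM-dC plus THU over DMSO (horizontal axis) of the 9 tested genes as reported (orange line) and under 13 other settings (points; filled where the adjusted p was under 0.05). All 13 settings gave a call for SLC29A1, SLC29A2, NME1 and DCTPP1, 12 for CMPK1, 10 for DCTD, 6 for SAMHD1, and 0 for DCK and NME2.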

How the data were processed

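Each of the 6 libraries has a deposited table of unnormalized read counts by gene symbol, from libraries made with a directional mRNA kit from 1000 ng RNA, per the labels' protocols. STAR, Cufflinks and DESeq2 and the build hg19 are named without roles, per the submitters' processing notes. Which program counted reads, on which strand and with which annotation, was not stated. The 5 rows of unassigned reads per library entered neither the library sizes nor the tests. Reads in no feature made up 10.9% to 13.1% and ambiguous reads 2.27% to 2.38% of the total. The authors' deposited table of 1 comparison holds, per the file headers, a fold ratio of group B over A and p-values. It does not name the groups.

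Counts were tested with edgeR 4.0.16 in R 4.3.3 (TMM scaling, filterByExpr with a minimum count of 10, treatment as the only term, two-sided, Benjamini-Hochberg over all genes). CPM values use TMM-scaled library sizes. SE is the log2 fold change over the root of its F statistic. Ratios of deposited counts used exact permutation tests (SciPy 1.17.1). The fit was first run on simulated counts of 11894 genes with 200 changed, and it called 95% of the 200. Far more genes were called in the real libraries, so that run did not test their scaling. Replicate pairs differed beyond counting noise (chi-square per degree of freedom 2.38 to 6.22). The alternatives were other scalings, DESeq2 1.42.0, other filters, a replicate block, a minimum fold change of 1.2 and leaving out each library. The 10 genes and the 9 lists were chosen with earlier results of these data known. From each list the text names the 2 called genes with the smallest p and those against its majority; SLC28A1 to SLC28A3, APOBEC1, APOBEC3A and the overlapping neighbours were named after their values were seen. Some genes that this rule selects are not reported here. Promoter windows are RefSeq's (GRCh38.p14). Coordinates of hg19 were not used.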

Additional observations from a re-analysis of the deposited data

How the results depend on the processing

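Against a minimum fold change of 1.2, 4765 of all genes tested were called in place of 8198, 22 related genes in place of 45, and 4 of the 10 genes in place of 7 (SLC29A1, SLC29A2, NME1 and DCTPP1). Under the other 12 alternatives between 5 and 7 of the 10 were called. With total counts, 5048 genes were called higher and 3189 lower, against 4167 and 4031 with TMM, the median of all genes tested moved to 0.10, and NME2 had a log2 fold change of 0.03 where the other alternatives gave values below 0. No called gene of the 10 changed direction. The 5 ratios kept their direction under all alternatives run for them. The replicate block gave 8050 called genes over all, 7 of the 10 and 43 related genes. Same-numbered treated and DMSO libraries did not deviate together (correlations -0.01, -0.01 and -0.08 over 9785 genes). Differently numbered ones had correlations from -0.04 to 0.06. Libraries handled in pairs without a marked shared effect could give such values, so whether the numbers pair the samples is not known. Leaving out 1 library at a time, SLC29A2 ranged from -0.81 to -0.59. CDA could not be fitted under any setting. With 0 counts, CDA is limited only to under 3 counts per library.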

Other observations

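The authors' deposited table lists 9 of the 10 genes and not CDA. Its fold of group B over group A was below 1 for 8 of them and above 1 for DCTD (1.09), and its adjusted p was under 0.05 for 6. In the authors' deposited table DCTD had an adjusted p of 0.0598 and SAMHD1 of 0.0497, on either side of that threshold.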
